A study of Sorghum bicolor with 12 samples.

Results

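Heat shock factors HSFA3 and HSFC1 are represented on the Sorghum bicolor array by 3 transcripts, Sb04g021490.1 (annotated HSFA3), Sb04g008300.1 and Sb10g021800.1 (both annotated HSFC1), out of 28587 transcripts measured. Each was found on the array by matching its 3 fold changes per replicate, as the study's supplementary lists give them, to the deposited normalised values of the treated array minus the control array with the same number, within 2e-05 on the log2 scale. Exactly 1 probe matched each transcript, with gaps of at most 1.35e-06. Leaf RNA of the R16 variety was hybridised in 4 groups of 3 arrays. Control plants were watered and held at 28°C for 3 h. Drought plants had no water for 3 days before the same incubation, heat plants were watered and placed at 50°C for 3 h, and combined stress plants had no water for 3 days and then 3 h at 50°C. All groups shared the variety, an age of 14 days at the start of the water treatment and a dark incubation, and the 3 youngest leaves were pooled within each treatment set, so that an array describes a pool of leaves and not a single plant. According to the methods, the 3 replicates were separate experiments.

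Heat shock factors are transcription factors that bind heat shock elements in promoters and switch on genes for chaperones, the proteins that keep other proteins folded. Plant factors fall into classes A, B and C: class A members activate transcription, class B members often lack the activating motif, and class C members, which also lack it, are the least characterised. In Arabidopsis, HSFA3 is a class A factor under the control of the dehydration-responsive regulator DREB2A, which links it to both drought and heat. Abscisic acid (ABA) is the hormone that accumulates in leaves short of water and induces late embryogenesis abundant (LEA) proteins, dehydrins and the protein phosphatases 2C that damp its own signalling.

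The names HSFA3 and HSFC1 rest on the best Arabidopsis match given in the study's lists, and the identifiers place the transcripts on chromosomes 4, 4 and 10. The array files name probes by annotation numbers alone, and no sequence of these genes was used here. Each transcript had 1 probe. The probe of Sb10g021800.1 was printed in 2 spots, which differed by at most 4.96% of their mean, and the other probes in 1 spot. Every spot of the 3 probes was well above background on all 12 arrays, with no outlier flag and no saturation. No value of these 3 transcripts below is therefore a bound. In the lists below, 6 of 7 other heat shock factors, 58 of 67 chaperones and 23 of 33 ABA and drought markers exceeded background on every array. Differences of the remaining list members can be bounds.

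Levels are given as the log2 of the background-corrected signal minus the 75th percentile of the array, so that 0 is a signal brighter than that of 75% of the spots. The 12 arrays lay on 3 slides, each with 1 array of every group, and the replicate number marks the slide. Between 75% and 84.4% of the spots of an array were well above background. The combined stress arrays were dimmer than the rest, with 75th percentiles of 10.38 to 10.91 on the log2 scale against 11.17 to 11.60 on the other arrays. If the arrays were scaled to the added spike-in RNA in place of the percentile, combined stress would lie lower against control by 0.78 for every transcript (shift of -0.78 on the log2 scale) and drought higher by 0.19, while scaling to the array median would raise heat and combined stress by 0.13 and 0.12. The leaf label was checked with 7 photosynthesis transcripts, each of which exceeded background by the scanner's flag on every array. All 7 came from the lists of drought or heat changes, so that their shifts between groups are partly by choice. Their summed level was 5.63 to 6.16 in the control group and 6.04 to 6.33 in the drought group, and it was higher at 50°C, with 7.25 to 7.41 for heat and 7.44 to 7.81 for combined stress. The members moved in opposite directions: 4 of the 7 rose in heat and in combined stress, led by Rubisco activase (RCA, Sb05g027880.1) with log2 differences from control of 6.98 and 7.85, while the other 3 were below control in both. Of these 3, a photosystem II protein (Sb01g036240.1, -1.43 in heat and -3.61 in combined stress) and the Rubisco small subunit (RBCS1A, Sb05g003480.1, -1.07 and -1.77) passed the limma test in combined stress, and LHCB6 (Sb06g032690.1, -0.60 and -2.22) passed in neither. Seed storage transcripts, 3 in all and checked as markers of another tissue, also moved with the groups and are given beside the results they accompany. All 3 came from the list of drought changes, so that their rise in drought is by choice.

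The 3 transcripts differed in which treatment raised them. HSFA3 was high in heat and uneven in combined stress, the HSFC1 transcript Sb04g008300.1 was high in both groups without water, and the HSFC1 transcript Sb10g021800.1 was high in both groups at 50°C. Since each transcript could be identified only because it was listed as changed more than 2-fold in all 3 replicates of a treatment, that difference (heat minus control for HSFA3 and Sb10g021800.1, drought minus control for Sb04g008300.1) is given as a description with no test. HSFA3 was also in the study's list of changes in heat only, which leaves out transcripts that passed this rule in drought or combined stress. Its lack of a call against control in those groups is therefore partly by choice. The other differences were tested in limma over all 22546 transcripts detected on every array of at least 1 group, with Benjamini-Hochberg adjusted p-values and a threshold of 0.05, and they share arrays with the differences that identified the transcripts. Heat minus drought holds the treated arrays through which each transcript was identified, so that its calls are partly by choice. The fit left the slide out, so that its p-values and intervals do not measure the SD of same-slide differences printed beside them.

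**Figure D1:**
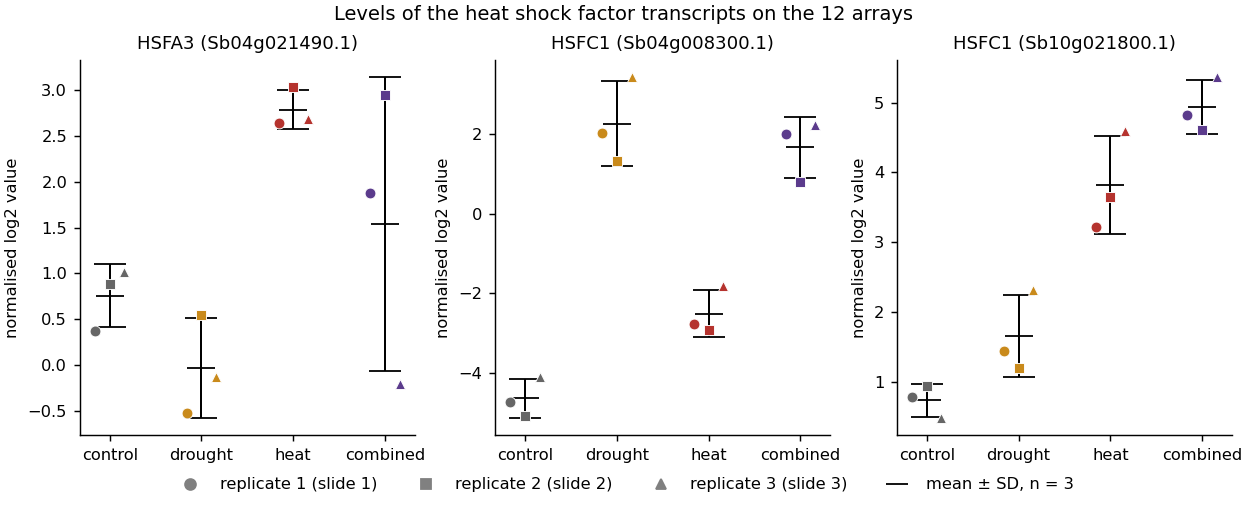
Normalised log2 level of HSFA3 and of the HSFC1 transcripts (vertical axis, a separate scale in each panel) in control, drought, heat and combined stress, with a point per array, shaped by replicate and slide, and black bars for the mean ± SD of 3 arrays. HSFA3 in combined stress is spread from -0.21 to 2.95, while Sb04g008300.1 is high without water and Sb10g021800.1 rises in steps to combined stress.

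HSFA3 lay at 0.37, 0.88 and 1.02 on the control arrays 1, 2 and 3. In heat it lay at 2.64, 3.03 and 2.69, above every control array. The heat arrays exceeded the control arrays of their slides by 2.27, 2.15 and 1.67, a mean log2 difference of 2.03 ± 0.32 (SD, n = 3), or 4.08-fold. The 3 heat arrays were close together, and the rise on each slide was of similar size. That each slide rose follows from the listing that identified the transcript. In pooled leaves, a change in the number of cells that express a gene and a change in its RNA per cell cannot be told apart.

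Drought did not raise HSFA3, which is partly by choice through the heat-only list. Its drought levels were -0.53, 0.55 and -0.13, the middle array overlapping the controls. The difference from control was -0.79 ± 0.42 (SD, n = 3), negative on all 3 slides, with a 95% interval of -2.18 to 0.59 and a limma adjusted p of 0.45. Heat exceeded drought by 2.82 ± 0.34 (SD, n = 3), or 7.07-fold, with no overlap between the groups and an adjusted p of 0.0055, a call lost without slide 1 (adjusted p = 0.11) and with array position as a factor (0.084).

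In combined stress HSFA3 was the least reproducible of the 3 transcripts, at 1.87, 2.95 and -0.21 on arrays 1, 2 and 3. Array 2 was as high as heat, array 1 lay between heat and control, and array 3 was below every control array. In the signals themselves the 3 arrays read 4866, 14840 and 1289, an 11.5-fold spread. The SD of 1.61 was at percentile 98.3 of the SDs of all transcripts tested over these arrays, whose median was 0.43, whereas the SD of HSFA3 over the heat arrays, 0.21, was at percentile 40.0.

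The mean of HSFA3 in combined stress, 1.54 ± 1.61 (SD, n = 3), therefore stood apart from neither heat nor control. It was above control by 0.78 (95% interval -0.60 to 2.16, limma adjusted p = 0.33) and lay -1.25 from heat (-2.63 to 0.13, adjusted p = 0.22). On the 3 slides it was 1.5 and 2.07 above and 1.23 below control (-1.23), while all 3 slides were lower than heat, by differences of -0.77, -0.09 and -2.90. Combined stress exceeded drought by 1.57 with an adjusted p of 0.082, and of 0.049 with the slide as a block in the fit.

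The position of HSFA3 in combined stress turned on single arrays. Without combined array 3 the difference from control was 1.65 with an adjusted p of 0.0076, and that from drought was 2.44 with an adjusted p of 0.0016. Without combined array 2 the difference from control was 0.07 (adjusted p = 0.92) and that from heat was -1.96 (adjusted p = 0.031). Under spike-in scaling the difference from control was -0.0017 (adjusted p = 1) and that from heat was -1.94 (adjusted p = 0.037). In the order heat, combined stress, control and drought, no pair of neighbouring HSFA3 levels differed beyond the spread of the arrays.

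Sb04g008300.1, an HSFC1 transcript, was dim in control and bright wherever water was withheld. It lay at -4.73, -5.09 and -4.11 on the control arrays, where its signal read 117, 77.0 and 134. On the drought arrays it lay at 2.03, 1.34 and 3.44, with signals of 11654, 6537 and 29717. Every drought array was far above every control array, by 6.76, 6.43 and 7.55 on the 3 slides, a mean of 6.91 ± 0.57 (SD, n = 3), or 121-fold. That each slide rose by more than 2-fold follows from the listing that identified this transcript.

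The same transcript remained high when heat was added to drought. Its combined stress levels were 2.0, 0.80 and 2.23, overlapping the drought arrays. They exceeded control by 6.32 ± 0.42 (SD, n = 3), or 79.9-fold, with an adjusted p of 1.6e-05. Against drought the difference was -0.59, with an interval of -1.82 to 0.63 and an adjusted p of 0.45, although all 3 slides were lower than drought, and under spike-in scaling it was -1.57 with an adjusted p of 0.021.

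Heat alone raised Sb04g008300.1 far less. The heat levels were -2.78, -2.92 and -1.82, above every control array and below every array of the groups without water. Heat exceeded control by 2.13 ± 0.17 (SD, n = 3), or 4.39-fold, with an adjusted p of 0.011 and increases of 1.95, 2.17 and 2.28 on the 3 slides. It lay below drought by a log2 difference of -4.78 ± 0.50 (SD, n = 3), with an adjusted p of 1.5e-04.

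At 50°C, withholding water raised Sb04g008300.1 by 4.19 ± 0.54 (SD, n = 3), or 18.2-fold, with an adjusted p of 0.0035. The rise was 4.79, 3.72 and 4.05 on the 3 slides, so that no slide came near 0. The calls for combined stress against heat and for heat against control were lost without slide 1 (adjusted p = 0.38 and 0.12), a fit in which 2 of all transcripts tested rose in combined stress over heat, and with the position of the array on the slide as a factor (0.057 and 0.062). In the order drought, combined stress, heat and control, only drought and combined stress did not differ beyond the spread of the arrays.

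Markers of seed storage, another tissue, moved with the same groups as Sb04g008300.1. Like it, they were taken from the list of drought changes, so that their rise in drought is by choice. The summed level of the 3 seed transcripts, annotated PAP85, OLEO1 and oleosin, was -4.61 to -3.99 in control and -4.66 to -3.97 in heat, but 0.13 to 2.67 in drought and -0.26 to 1.31 in combined stress. On the control arrays PAP85 and OLEO1 never stood well above background, and in heat each did so on 2 of 3 arrays. Their part in the result was not tested.

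Sb10g021800.1, the other HSFC1 transcript, read 5357, 5059 and 3223 in signal on the control arrays, or normalised levels of 0.79, 0.95 and 0.49. In heat it lay at 3.22, 3.64 and 4.60, above every control and drought array. The increases over control on the slides were 2.44, 2.70 and 4.11, a mean of 3.08 ± 0.90 (SD, n = 3), or 8.46-fold. A rise on each slide follows from the listing that identified the transcript. Its size was uneven, with slide 3 the highest. The summed level of the photosynthesis transcripts was higher in the same groups, through 4 of the 7 members, while the other 3 were lower there, as given above. These transcripts were themselves taken from the lists of drought or heat changes, and their part in the result was not tested.

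The highest levels of Sb10g021800.1 were in combined stress, at 4.82, 4.61 and 5.36, above every heat array. The difference from control was 4.19 ± 0.62 (SD, n = 3), or 18.3-fold, with an adjusted p of 2.3e-05, and that from drought was 3.28 ± 0.20 (SD, n = 3), or 9.70-fold, with an adjusted p of 1.8e-04 (0.05, just short of the threshold, with array position as a factor). Against heat the increase was 1.11 ± 0.43 (SD, n = 3), or 2.16-fold, positive on all 3 slides at 1.60, 0.97 and 0.77. Its adjusted p was 0.10, and 0.043 with the slide as a block. Under spike-in scaling the same increase was 0.43 with an adjusted p of 0.47.

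Drought alone did not raise Sb10g021800.1 past the threshold. The drought levels were 1.45, 1.20 and 2.32, each above every control array. The difference was 0.91 ± 0.82 (SD, n = 3), or 1.88-fold, with slide values of 0.66, 0.25 and 1.83 and an adjusted p of 0.17. Heat exceeded drought by 2.17 ± 0.35 (SD, n = 3), or 4.49-fold, with an adjusted p of 0.0017. In the order combined stress, heat, drought and control, heat and drought differed, drought and control did not pass the threshold with or without the slide in the fit, and combined stress and heat passed it with the slide alone.

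**Figure D2:**
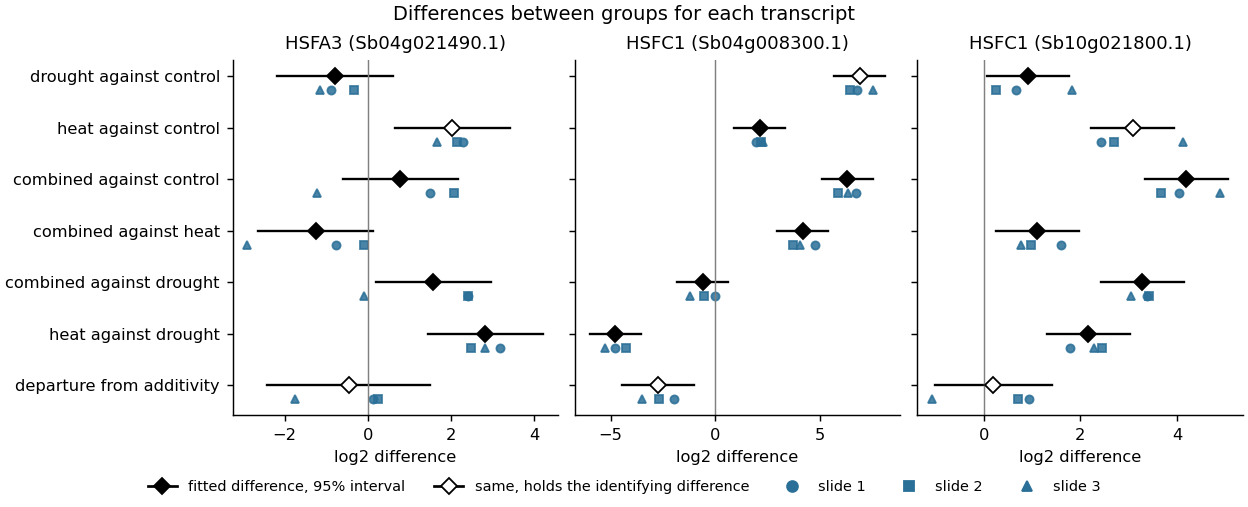
Differences between groups on the log2 scale (horizontal axis, a separate scale in each panel) for HSFA3 and both HSFC1 transcripts, with the fitted difference and its 95% interval as a diamond and bar and the 3 same-slide differences as blue points. White diamonds mark the differences through which a transcript was identified, and the departure from additivity, which contains them, such as 6.91 for Sb04g008300.1 in drought against control.

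Of the 2 factors tested in drought, HSFA3 and Sb10g021800.1, 0 rose, against 4.31% of all transcripts in limma. HSFA3 came from the heat-only list, so that its lack of a call against control in drought and combined stress is partly by choice. In heat the 1 factor tested, Sb04g008300.1, rose, against 18.4% of all transcripts, and in combined stress 2 of 3 factors, both HSFC1 transcripts, rose over control, against 22.6%. Combined stress over heat was called higher for 1 of the 3, Sb04g008300.1, against 3.57% of all transcripts, and combined stress over drought for 1 of the 3, Sb10g021800.1, against 14.8%. Heat was higher than drought for 2 of the 3, HSFA3 and Sb10g021800.1, against 18.3%, and lower for Sb04g008300.1, against 18.5%. Each of these calls is partly by choice, since heat minus drought holds the treated arrays through which the transcript was identified. With only 3 transcripts, these counts are set beside the shares for scale.

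The response to both stresses was also compared with the sum of the single responses on the log2 scale, by adding control to combined stress and subtracting both single treatments. This departure contains, with a minus sign, the difference through which each transcript was identified as high, so that it is given as a description with no test. For HSFA3 it was -0.46 ± 1.12 (SD, n = 3), at 0.13, 0.25 and -1.75 on the slides. For Sb10g021800.1 it was 0.20, positive on 2 slides and negative on 1. For Sb04g008300.1 it was -2.73 ± 0.76 (SD, n = 3), and it was negative on all 3 slides, at -1.98, -2.71 and -3.50.

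Other heat shock factors in the study's lists gave 7 transcripts, all of them found because they were listed as changed in heat. They comprised HSFA2 (Sb10g022340.1), which in Arabidopsis sustains the heat response, 2 transcripts annotated HSFA6B (Sb01g046350.1 and Sb01g021490.1), the class B factors HSFB2A (Sb06g025710.1) and HSFB2B (Sb02g030490.1 and Sb07g025120.1), and HSF1 (Sb01g042370.1). All 7 were higher in heat and in combined stress than in control, against 18.4% and 22.6% of all transcripts. Their log2 differences were 2.82 to 7.45 and 3.00 to 8.18, the former by the choice of transcripts. Drought raised or lowered none of them by the limma call, beside 4.31% and 0.86% of all transcripts called higher and lower. An unadjusted p under 0.05 was reached by 0 of 7 (differences of -1.28 to 0.75, median 0.12, against a median of -0.11 over all transcripts). A count of 0 of 7 is near these shares, so that nothing is read from it. None of the 7 was in the list of drought changes, whereas Sb04g008300.1 was identified by its rise in drought, so that its 6.91 is set beside their range as a description only. HSFA3 and Sb10g021800.1, at -0.79 and 0.91, lay inside that range and just above it.

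In combined stress over heat, 4 of the 7 rose, against 3.57% of all transcripts, with a median of 1.43 against -0.0020 over all transcripts. The 4 were HSFB2A at 1.90 ± 0.47 (SD, n = 3, adjusted p = 0.034), HSFA6B Sb01g021490.1 at 1.76 ± 0.61 (SD, n = 3, adjusted p = 0.049) and both HSFB2B transcripts, Sb02g030490.1 at 1.55 ± 0.21 (SD, n = 3, adjusted p = 0.027) and Sb07g025120.1 at 1.43 ± 0.12 (SD, n = 3, adjusted p = 0.025). HSFA2 at 1.05, HSFA6B Sb01g046350.1 at 0.73 and HSF1 at 0.01 did not pass. The count fell to 0 without slide 1 and to 0 without slide 3, fits in which 2 and 132 of all transcripts were called higher. Spike-in scaling would lower every difference of combined stress over heat by the same amount, here and in the lists below. It moved the median over all transcripts to -0.69, with 531 called higher and 6718 lower.

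HSFA3 was the only heat shock factor of these 10 whose fitted level was lower in combined stress than in heat, at -1.25, although that difference did not pass the test. It was also the only one of the 10 taken from the heat-only list, so that its place apart in combined stress is partly by choice. On combined array 3, where HSFA3 was lowest, both HSFC1 transcripts and 6 of the 7 other factors had the highest of their 3 combined stress values. HSF1 was the other exception, at 2.17, 2.14 and 1.63. The SDs of the 7 over the combined stress arrays were 0.23 to 0.74, against 1.61 for HSFA3.

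**Figure D3:**
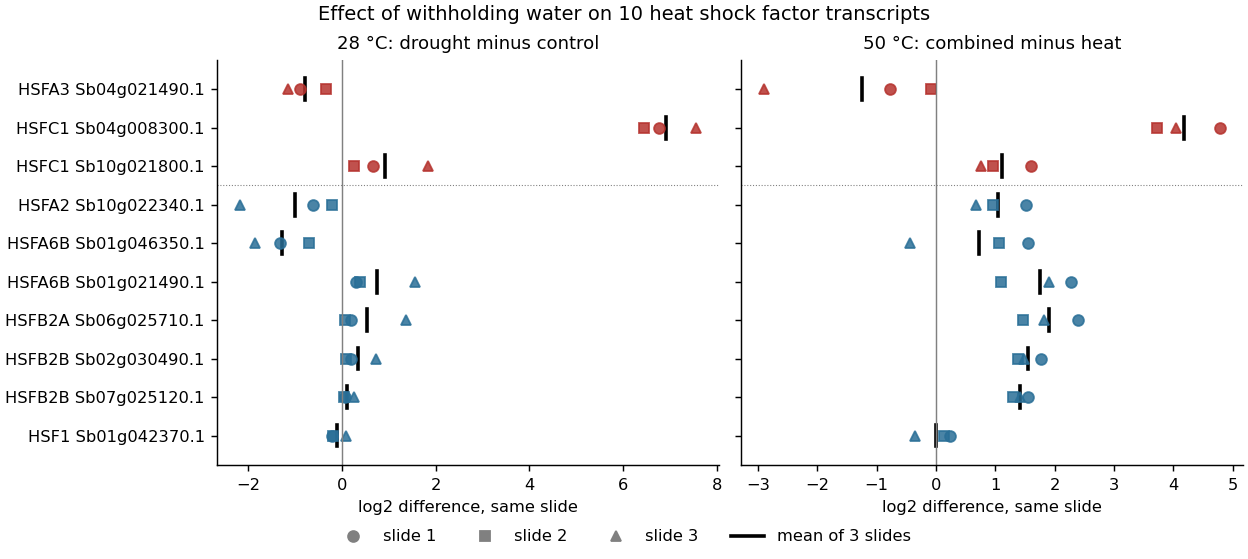
Same-slide log2 differences (horizontal axes) of 10 heat shock factor transcripts when water was withheld, drought minus control on the left and combined minus heat on the right, with HSFA3 and HSFC1 in red, the other 7 in blue, point shapes for slides and bars for means. HSFA3, from the heat-only list, is negative on all 3 slides in both panels. Sb04g008300.1, identified by its rise in drought, lies to the right of the other factors on the left.

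Chaperones, the textbook targets of heat shock factors, gave 67 transcripts, of which 62 stood in the lists of heat changes and 16 in that of drought changes. In drought 9 of them were called higher and 1 lower, beside 4.31% and 0.86% of all transcripts, with a median log2 difference of 0.31, and 8 of the 9 and the 1 lower came from the list of drought changes, so that these calls are largely by choice. Of the 51 chaperones outside that list, 1 was called higher in drought. Of the 9, 7 were small heat shock proteins, which hold unfolding proteins in a soluble form, and 6 of these 7 were in the drought list, which held none of the 15 HSP70 and 4 HSP90 transcripts, so that nothing about the classes is read from the count. Without slide 1, 0 were called higher in drought, and without slide 3, 2.

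In combined stress over heat, 6 of the 67 chaperones rose and 0 fell in limma (25 and 1 at an unadjusted p under 0.05), against 3.57% and 1.52% of all transcripts, with a median of 0.77, close to the 1.11 of Sb10g021800.1 and below the 4.19 of Sb04g008300.1. With the slide as a block, 23 rose and 1 fell, and without slide 1, 0 rose. Spike-in scaling would lower all these differences as well. The largest rises were in the class I small heat shock protein Sb04g030135.1, at 4.27 ± 0.64 (SD, n = 3, adjusted p = 0.023), and the class III small heat shock protein Sb04g035130.1, at 2.65 ± 0.45 (SD, n = 3, adjusted p = 0.028). The lowest values were -2.19 ± 0.97 (SD, n = 3, adjusted p = 0.20) for Sb07g022220.1, a DNAJ co-chaperone, and -0.89 ± 0.52 (SD, n = 3, adjusted p = 0.35) for Sb02g034760.1, a class P-related small heat shock protein, neither of which passed the test.

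Genes that work with heat shock factors or share their stresses gave 10 transcripts, all listed as changed in heat and 2 of them also in drought. In drought 2 of the 10 were called higher, beside 4.31% of all transcripts, and these are the same 2, so that their rise is by choice. They were a DREB1A transcript (Sb10g001620.1), one of the regulators that bind dehydration-responsive elements, at 4.46 and the galactinol synthase GolS1 (Sb01g037090.1), which makes the precursor of raffinose sugars and is a target of heat shock factors in Arabidopsis, at 4.45. In combined stress over heat 2 of the 10 rose, against 3.57% of all transcripts, a different DREB1A transcript (Sb02g030310.1) at 2.44 ± 0.66 (SD, n = 3, adjusted p = 0.020) and ROF1 (Sb07g026560.1), a peptidyl-prolyl isomerase that binds HSP90, at 0.99 with an adjusted p of 0.025. The co-chaperone BAG5 was measured by 2 transcripts that lay at opposite ends of the list, Sb05g018030.1 at 2.60 ± 0.34 (SD, n = 3, adjusted p = 0.063) and Sb04g029720.1 at -0.72 ± 0.76 (SD, n = 3, adjusted p = 0.19), and the lowest of the 10 was the DREB1A transcript Sb07g025210.1 at -0.97 ± 1.35 (SD, n = 3, adjusted p = 0.40). Without slide 1 none of the 10 rose in either comparison, and without slide 3 only 1 rose in drought and 0 in combined stress over heat. With the slide as a block, 4 rose in combined stress over heat.

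Markers of ABA and drought gave 33 transcripts, 28 of them from the list of drought changes. Their rise in drought (25 of 33, against 4.31% of all transcripts) is therefore by choice. In combined stress over heat, 24 of the 33 rose and 0 fell in limma (29 and 1 at an unadjusted p under 0.05), against 3.57% and 1.52% of all transcripts. Their median was 3.33, and 2.54 over the 23 that exceeded background on each of the 12 arrays. The value of 4.19 for Sb04g008300.1 lay between the median and the highest of this list. Of the calls, 12 were among 16 LEA and dehydrin transcripts and 10 among 14 protein phosphatases 2C, and the count was 0 without slide 1.

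The extremes of the ABA and drought list in combined stress over heat were LEA transcripts and a phosphatase. Sb09g027110.1 and Sb07g015410.1, both annotated as LEA proteins, rose by 9.61 ± 1.35 (SD, n = 3, adjusted p = 1.5e-04) and 5.55 ± 0.93 (SD, n = 3, adjusted p = 6.2e-04). The protein phosphatase 2C Sb04g031580.1 was at -1.30 ± 1.12 (SD, n = 3, adjusted p = 0.25) and the LEA transcript Sb09g016810.1 (GEA6) at -0.44 ± 0.13 (SD, n = 3, adjusted p = 0.17), neither of which passed. The seed storage transcripts given above, also from the list of drought changes, moved with the same groups as these markers, and LEA proteins are themselves abundant in seeds.

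**Figure D4:**
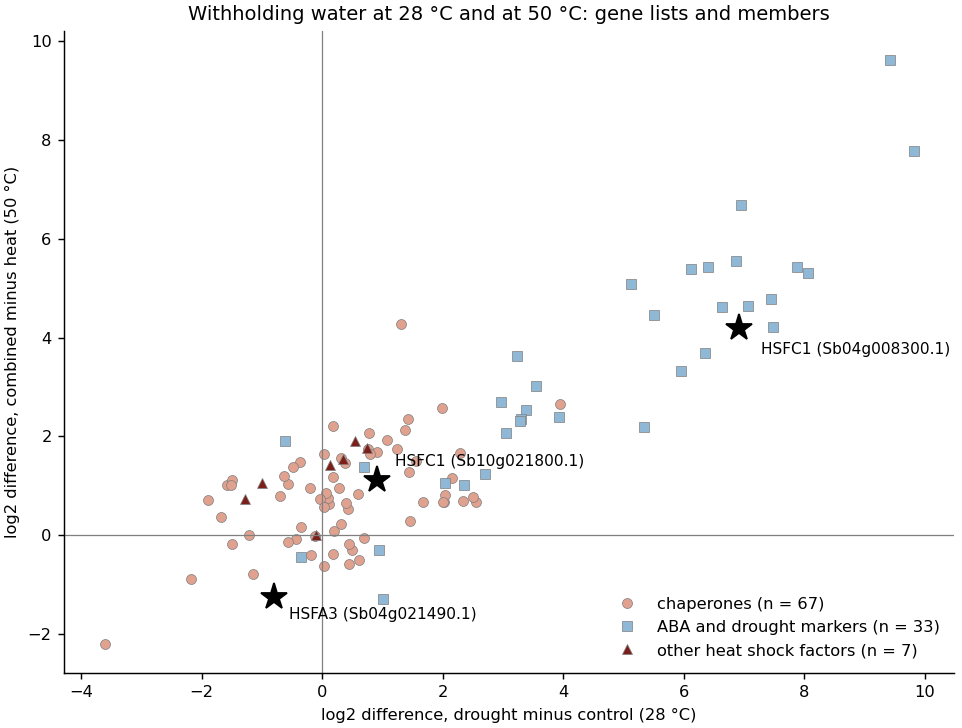
Effect of withholding water at 28°C (horizontal axis, drought minus control) and at 50°C (vertical axis, combined minus heat), both as fitted log2 differences, for chaperones, ABA and drought markers and other heat shock factors, with stars for HSFA3 and HSFC1. Sb04g008300.1 lies among the ABA and drought markers, Sb10g021800.1 to the right of the other heat shock factors in drought and HSFA3 at the lower left. Sb04g008300.1 and 28 of the 33 markers came from the list of drought changes, and the other heat shock factors from those of heat changes. Positions along the horizontal axis are therefore largely by choice. Points include transcripts dimmer than background in some group.

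Transcripts whose levels ran most nearly in parallel with each factor over the 12 arrays were sought among all 22545 others by Pearson's r, and the 3 highest with a known identifier are named. The arrays share groups and slides, so that r describes the pattern of these arrays and was not tested. For Sb04g008300.1, the highest of all transcripts was Sb04g033380.1 (r = 0.996), annotated ATHB-7, a homeodomain factor induced by ABA in Arabidopsis. Next came Sb03g030050.1 and Sb03g030050.2 (r = 0.995 and 0.994), the former annotated as GBF3, a bZIP factor of the G-box binding group. By their identifiers these are transcripts of the same gene. Sb03g030050.1 was well above background on 0 of 3 control arrays, so that its r rests partly on values near background. ATHB-7 exceeded control by 7.48 when water was withheld, by 2.17 at 50°C and by 6.38 under both stresses. Sb04g008300.1 did so by 6.91, 2.13 and 6.32. This likeness follows from the choice of ATHB-7 by r over these arrays, and both transcripts came from the list of drought changes.

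For Sb10g021800.1, the nearest named transcripts were Sb09g028410.1 and Sb07g014620.1 (r = 0.996 and 0.995), both annotated as DNAJ heat shock proteins, which deliver substrates to HSP70, and the BAG5 transcript Sb05g018030.1 (r = 0.991), at ranks 2, 3 and 4. Their differences from control were larger than those of the factor, at 5.53, 5.35 and 7.23 in heat and 7.66, 7.70 and 9.83 in combined stress. In all, 311 transcripts reached an r above 0.95 with Sb10g021800.1, against 113 for Sb04g008300.1 and 77 for HSFA3.

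For HSFA3, the nearest named transcripts were Sb04g038400.1 and Sb04g031640.1 (r = 0.972 and 0.971), both annotated as unknown proteins, and Sb03g002900.1 (r = 0.967), annotated RAP, at ranks 8, 11 and 20. As follows from their choice by r over these arrays, they shared its pattern in combined stress against heat, with slide 3 the lowest at -2.92, -2.0 and -3.83, beside -2.90 for HSFA3. Between the factors themselves, r over the 12 arrays was -0.33 for HSFA3 and Sb04g008300.1, 0.48 for HSFA3 and Sb10g021800.1 and 0.43 for both HSFC1 transcripts.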

How the data were processed

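Leaf RNA of 12 Sorghum bicolor samples (4 groups of 3) was measured on 1-colour Agilent arrays of 45220 spots. Spot intensities, background-corrected but not normalised between arrays, were deposited by the authors as written by Feature Extraction 10.7.3.1. A table of normalised log2 values, made in GeneSpring and centred per probe, was also deposited by the authors. It served to identify transcripts and as an alternative (r of at least 0.9996 with differences between arrays from the intensities). Identifiers and annotations came from supplementary lists, of which some were read in part: 2959 of 2965 listed identifiers were joined. The fold changes in those lists were used for matching alone.

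The log2 processed signal was scaled to the 75th percentile of each array over 43803 non-control spots, spots of a probe were averaged, and the brightest probe stood for each of 28587 transcripts. A transcript entered the fit if detected (well above background, no outlier flag) on all 3 arrays of a group. limma 3.58.1 (R 4.3.3) fitted 4 group means over 12 arrays, and Benjamini-Hochberg adjustment ran over 22546 transcripts. An SD printed beside a difference is over the same-slide differences, while intervals and p-values come from this fit, which leaves the slide out except where a block is named. Other steps used python 3.11.15. The fit was tested on simulated data. The number of arrays limits the precision, and the median SD between replicates was 0.23 for control arrays, 0.34 for drought, 0.24 for heat and 0.40 for combined stress.

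Named transcripts were the 3 factors, every other joined heat shock factor, the 2 highest and 2 lowest combined minus heat differences of each list among transcripts detected on all arrays of both groups, and the 3 joined transcripts most correlated with each factor. ROF1, GolS1 and the DREB1A transcript Sb10g001620.1 were named after their values were seen, as calls of a small list. The members and lists were chosen with earlier results of these data known. Alternatives varied the background correction, scaling, filter, slide, array position, weights and arrays left out. Spike-in scaling, background correction on the median signal and the slide block with array position were chosen after seeing the data.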

Additional observations from a re-analysis of the deposited data

Results flagged for a closer look

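The fitted effect of 50°C on the HSFC1 transcript Sb04g008300.1 was positive in watered plants. In unwatered plants it was negative but did not pass the test, and it shares the drought arrays through which the transcript was identified. Heat lay above control on all 3 slides (1.95, 2.17 and 2.28 on the log2 scale), and combined stress lay below drought on all 3 slides (-0.03, -0.54 and -1.21). The difference between these effects was -2.73, and -3.61 to -2.14 over all alternatives. It was not tested, because it contains the drought level of this transcript, through which it was identified. The fall from drought to combined stress was within the spread of the arrays on its own (adjusted p = 0.45).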

How the results depend on the processing

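Of 564 recomputed differences of HSFA3 and the HSFC1 transcripts, 525 kept their direction and side of the threshold, or stayed within 1 SD where untested. The cause of the others was not tested. With array weights, HSFA3 in drought (-1.26), in combined stress against control (1.02) and against drought (2.28) passed, its departure from additivity was 0.30, and Sb10g021800.1 passed in drought (0.75) and in combined stress against heat (1.11). With array position as a factor, HSFA3 was 1.61 in heat against control (also with the slide) and 2.46 in heat against drought, Sb04g008300.1 was 2.18 in heat against control and 4.09 in combined stress against heat, and Sb10g021800.1 was 3.02 in combined stress against drought, the last 4 no longer past the threshold. Under spike-in scaling, combined stress was -0.0017 from control and -1.94 from heat for HSFA3 and -1.57 from drought for Sb04g008300.1, whose departure from additivity was -3.61. The departure from additivity of Sb10g021800.1 was -0.11 with quantile normalisation, -0.68 with spike-in scaling and -0.034 with array position, with or without the slide. Background correction on the median signal gave 6.16 for Sb04g008300.1 in drought. With the replicate block, combined stress against drought for HSFA3 (1.57) and against heat for Sb10g021800.1 (1.11) passed, and no other call of the 3 factors changed. Deviations of same-slide arrays from their group means correlated above 0.1 in 17 of 18 pairs (0.04 to 0.62), and all 12 arrays correlated best with their own slide. Leaving out a slide or array gave, for HSFA3, 0.073 to 1.78 for combined stress against control, -1.96 to -0.38 against heat, 0.86 to 2.44 against drought, 2.58 to 3.12 for heat against drought and -1.17 to 0.41 for the departure from additivity. For Sb04g008300.1 it gave 6.33 to 7.38 in drought, 1.79 to 2.40 in heat and 3.89 to 4.62 for combined stress against heat, and for the departure of Sb10g021800.1 -0.17 to 0.83. Leaving out a slide gave 0 to 9 chaperones higher and 0 to 4 lower in drought, and 0 to 2 of the 10 heat shock factor partners and 10 to 27 ABA and drought markers higher. In combined stress over heat it gave 0 to 3 other heat shock factors, 0 to 8 chaperones, 0 to 1 partners and 0 to 26 ABA and drought markers higher. With the fold rule of the methods, 4 chaperones were lower in drought, and 19 were higher and 1 lower in combined stress over heat. With the slide block these were 4, 23 and 1, and 4 partners were higher. Quantile normalisation gave 3 chaperones and 1 partner, and a log2 difference beyond 1 gave 1 partner. Background correction on the mean signal was not run. Signal over background did not limit the 3 factors, which were detected on every array.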
